A study of Mus musculus with 18 samples.

Results

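Keratins, claudins and tight junction genes were followed in mouse tubular epithelial cells treated with TGFβ and with the substrates of a methyltransferase. Members were chosen by name: symbols beginning with Krt, Cldn or Tjp and a number, and Ocln, Marveld2, Marveld3, F11r, Cgn and Cgnl1. The count table held 98 of 99 such genes among 55487 gene rows: 55 keratins, 34 claudins and 9 other tight junction genes. Of the 98, 48 had no read in any library, 29 had reads but fell below the low-count filter, and 21 were tested.

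The cells were im-TEC, a conditionally immortalized mouse line of tubular epithelial cells carrying SV40 large T antigen, whose activity was lowered in every group by 7 days at the restrictive temperature without interferon-γ before seeding. The design crosses transforming growth factor β (TGFβ), a profibrotic cytokine, with nicotinamide (NAM) and with S-adenosyl methionine (SAM), the substrates of nicotinamide N-methyltransferase. Each of 6 groups had 3 libraries after 48 h of treatment: TGFβ at 10 ng/mL, the same TGFβ dose with NAM (TGFβ+NAM), the same dose with SAM (TGFβ+SAM), NAM at 1 mM, SAM at 0.5 mM, and control cells without these additions. Polyadenylated RNA was read with QuantSeq, a method that places 1 read per fragment near the 3′ end of a transcript. The labels name 1 line and do not say whether libraries of a group came from separate cultures, so p-values measure the spread between these libraries, which may be technical.

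Keratins are the intermediate filament proteins of epithelial cells, and each filament pairs a type I with a type II keratin. Claudins are membrane proteins that set which ions and solutes pass between neighbouring cells at the tight junction. Other junction members bridge the claudins and the adhesion molecule JAM-A, encoded by F11r, to actin through scaffold proteins of the zonula occludens and cingulin families.

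Libraries held 4171170 to 7717626 reads in genes, and the members took 0.0812% to 0.133% of them. Levels are in CPM, a gene's reads relative to the TMM-scaled total of its library. Differences are fitted log2 changes ± SE from edgeR's quasi-likelihood test over 13469 genes, called at a Benjamini-Hochberg adjusted p under 0.05. NAM replicate 3 and TGFβ+NAM replicate 1 lay away from the other libraries on a principal component of all genes. For SAM replicates 2 and 3 the treatment tags hold DIM. and LUN., against their titles, which name SAM. The 6 SAM libraries also carry their own run of library numbers, so a difference between SAM and non-SAM libraries cannot be told apart from one of preparation. Each TGFβ comparison lies within 1 run.

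The line carried some defining tubular markers and lacked others. Of 7 markers of tubular epithelium, Epcam had no read and E-cadherin (Cdh1) had 19 reads over all 18 libraries, whereas the nephron factor Pax8 averaged 186 ± 18.1 CPM in TGFβ and 233 ± 8.49 CPM in control (SD, n = 3 each). The summed level of these markers was 466 to 529 CPM in TGFβ libraries and 740.2 to 774 CPM in control libraries. Of 7 fibroblast markers, Lum had no read, and the sum of the list was 125 to 135 CPM in TGFβ, against 6.72 to 8.61 CPM in control, 102 to 129 CPM in TGFβ+NAM, against 8.41 to 10.9 CPM in NAM, and 67.5 to 78.3 CPM in TGFβ+SAM, against 2.66 to 3.19 CPM in SAM. Markers of endothelium summed to at most 1.38 CPM in any library, with Cdh5, Kdr, Tie1 and Cldn5 at 0. The part of these shifts in the results on members was not tested. In bulk RNA, fewer cells of a kind and less RNA per cell cannot be told apart.

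A small set of genes made up most of the signal. F11r took 27.3% of all reads of the members, Cgnl1 14.6%, Krt8 13.3% and Cldn12 11.5%, together 66.8%, and Cldn1 took 8.51%. Counting at the 3′ end yields about 1 read per captured transcript whatever its length, but it also depends on where the annotated gene ends, so these shares are of reads, not of protein or of transcripts. Among the 48 members without a read were the distal nephron claudins Cldn3 and Cldn8, the endothelial Cldn5, tricellulin (Marveld2) and the epidermal keratin Krt1. A count of 0 allows up to 3 reads, 0.0266 CPM over the 18 libraries; this covers counting error only. Occludin (Ocln), a tight junction membrane protein, had 3 reads, all in 1 library. Cldn7 had 2 reads, Marveld3 1, and Cldn4 18, of which 16 were in TGFβ+NAM. The 29 members below the filter held 1 to 57 reads each and 311 in all.

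The promoters of 4 genes chosen after their values were seen are printed because these genes moved in opposite directions under TGFβ: Krt8 and F11r rose, Cldn1 and Cldn2 fell. Each is the 250 bases before the start site of the gene in RefSeq on GRCm38.p6, 5′ to 3′ on the gene's strand. Capitals mark CAGAC (a core of SMAD binding elements), CAGGTG (an E-box bound by SNAIL and ZEB factors in other genes) and TGANTCA (the AP-1 site), searched on both strands.
Krt8 (chr15:102004343-102004592, minus strand): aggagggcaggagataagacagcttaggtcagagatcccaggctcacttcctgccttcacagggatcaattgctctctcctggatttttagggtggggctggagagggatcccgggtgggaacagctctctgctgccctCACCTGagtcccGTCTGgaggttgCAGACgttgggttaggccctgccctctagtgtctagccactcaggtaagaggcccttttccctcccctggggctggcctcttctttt
F11r (chr1:171437311-171437560, plus strand): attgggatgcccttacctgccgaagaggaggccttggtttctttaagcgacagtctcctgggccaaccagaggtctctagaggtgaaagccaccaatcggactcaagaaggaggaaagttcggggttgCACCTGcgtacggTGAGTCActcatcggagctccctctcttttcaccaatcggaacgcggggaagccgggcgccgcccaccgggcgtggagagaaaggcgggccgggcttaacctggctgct
Cldn1 (chr16:26371840-26372089, minus strand): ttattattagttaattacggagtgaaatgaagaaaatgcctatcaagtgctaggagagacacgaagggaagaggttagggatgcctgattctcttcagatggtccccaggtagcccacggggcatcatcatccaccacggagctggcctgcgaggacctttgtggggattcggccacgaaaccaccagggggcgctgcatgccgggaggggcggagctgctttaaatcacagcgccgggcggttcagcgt
Cldn2 (chrX:139800558-139800807, plus strand): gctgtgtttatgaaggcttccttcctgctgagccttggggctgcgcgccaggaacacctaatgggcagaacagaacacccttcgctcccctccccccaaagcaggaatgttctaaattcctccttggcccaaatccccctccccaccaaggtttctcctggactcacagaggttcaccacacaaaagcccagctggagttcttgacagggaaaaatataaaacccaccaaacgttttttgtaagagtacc
In Krt8, CAGAC was found on both strands, starting 87 and 99 bases before the start site, and CAGGTG on the opposite strand starting 111 bases before it. Of the Krt8 window, 140 bases lie inside the gene as GENCODE places it, and so do all 3 of these matches, since the start sites of the 2 annotations differ. The F11r and Cldn1 windows reach 26 and 2 bases into their genes, and the F11r matches lie outside. In F11r, CAGGTG began 122 bases before the start site on the opposite strand and TGANTCA 109 bases before it on the gene's strand. Neither Cldn1 nor Cldn2 held any of the 3 motifs in this window. Over 32851 mouse promoters of the same length, 42.2% held CAGAC, 17.2% CAGGTG and 6.75% TGANTCA, and the 15 tested members with a promoter entry held them in 8, 6 and 1 cases. A member was counted if any of its windows held the motif, while the percentages are per window, so the units differ. The Krt7, Krt14 and Tjp1 windows and 1 Tjp3 window lie wholly inside their genes as GENCODE places them. Windows of some other tested members, Krt18 and Cldn19 among them, reach into theirs. A match is a run of letters and is not evidence of binding.

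TGFβ was first set against control, which shows its effect on these genes in cells given no supplement. Of the 21 tested members, 5 rose (Krt8, Krt14, F11r, Cgn and Cldn12), or 23.8%, where 9.7% of all 13469 tested genes rose. Another 2 (Cldn1 and Cldn2) fell, or 9.52%, where 9.74% of all tested genes fell. With NAM, TGFβ raised 8 members (background 10.9%) and lowered 2 (background 11%). With SAM, it raised 9 (background 14.2%) and lowered 4 (background 14.2%). The shares that fell with TGFβ or TGFβ+NAM were near the background. The median log2 change of the tested members was 0.31 without a supplement, 0.45 with NAM and 0.69 with SAM, and that of all tested genes was 0.01, 0.00 and 0.00. A member that passed the low-count filter only through a group where it was high had to differ, so these counts describe the 21 genes and support nothing further. The 3 TGFβ comparisons share no library. In all 3, the same 7 members were called in 1 direction, or 33.3% of the tested members, where 12.7% of all tested genes were so called.

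**Figure D1:**
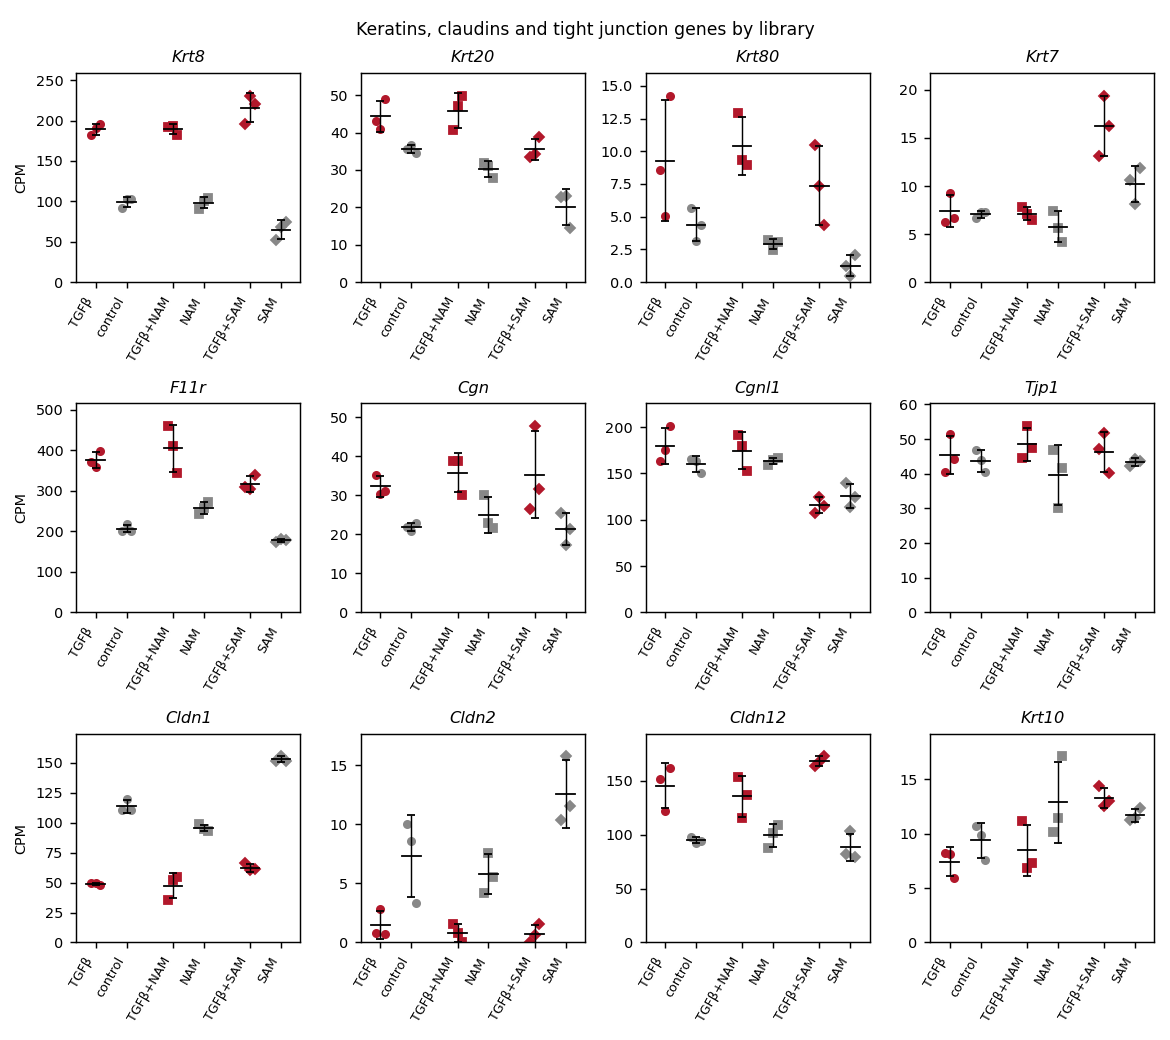
CPM of 12 members in each of the 18 libraries, with the mean ± SD of each group. Red points are TGFβ libraries and grey points stand for the same background without TGFβ. Krt8 and F11r lie higher, and Cldn1 and Cldn2 lower, in each TGFβ group than in its background, while Tjp1 overlaps.

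Krt8 (chromosome 15, 101996698 to 102004482, minus strand in GRCm38), the type II keratin of simple epithelia, rose with TGFβ on every background and was the 1 member whose TGFβ effect passed the test of a difference with SAM. In TGFβ libraries Krt8 was read at 182, 190.3 and 195 CPM, against 92.3, 103 and 103 CPM in control libraries. With NAM the values were 193, 194 and 183 CPM in TGFβ+NAM, against 90.7, 100.0 and 104 CPM in NAM. With SAM they were 196, 231 and 221 CPM in TGFβ+SAM, against 52.2, 67.8 and 74.5 CPM in SAM. The groups did not overlap on any background, and the SAM libraries were the lowest of all. The log2 change was 0.93 ± 0.10 in TGFβ against control (adjusted p = 2.68e-09), 0.95 ± 0.10 in TGFβ+NAM against NAM (adjusted p = 1.18e-09) and 1.74 ± 0.11 in TGFβ+SAM against SAM (adjusted p = 7.29e-17). Krt8 was lower in SAM than in control, with a log2 change of -0.62 ± 0.11 (adjusted p = 6.14e-05). Under TGFβ, SAM left a difference of 0.19 ± 0.10, which did not pass (adjusted p = 0.29). The TGFβ effect with SAM exceeded that without it by 0.81 ± 0.15 (interaction, 95% interval 0.51 to 1.11, adjusted p = 0.00078), and over 21 alternatives this difference was 0.69 to 1.13, called in each. Of all tested genes, 0.802% had an interaction in this direction and 0.631% in the other, where no member was called.

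Krt20 (chromosome 11, 99428403 to 99438150, minus strand), a type I keratin known from gut epithelium and urothelium, passed the test under TGFβ only where a supplement was present. Krt20 had 43.1, 41.0 and 48.9 CPM in TGFβ, against 35.7, 36.7 and 34.5 CPM in control. Its level was 40.6, 47.1 and 49.9 CPM in TGFβ+NAM, against 31.8, 31.0 and 27.8 CPM in NAM. On the SAM background Krt20 had 33.5, 34.3 and 38.8 CPM in TGFβ+SAM, against 22.6, 23.1 and 14.5 CPM in SAM. TGFβ libraries were above their background in each pair, without overlap. The log2 change was 0.31 ± 0.15 without a supplement, which did not pass (adjusted p = 0.172), 0.60 ± 0.15 with NAM (adjusted p = 0.00304) and 0.82 ± 0.16 with SAM (adjusted p = 0.000112). These effects were not shown to differ from one another, with an interaction of 0.29 ± 0.22 for NAM (adjusted p = 1) and 0.51 ± 0.22 for SAM (adjusted p = 0.392). Krt20 was lower in SAM than in control, with a log2 change of -0.82 ± 0.16 (adjusted p = 0.00036). Without SAM replicates 2 and 3, which leaves a single SAM library, the log2 change was -0.66, which does not show that the call holds.

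Krt80 (chromosome 15, 101347444 to 101370162, minus strand), an epithelial type II keratin, was read at low levels that varied widely within groups. Of its 3′ windows, 6.4% occur in Prdx6 or Gm35853. The TGFβ libraries had 8.59, 5.03 and 14.2 CPM of Krt80, and the control libraries 5.64, 3.15 and 4.39 CPM. TGFβ+NAM libraries had 12.9, 9.29 and 8.97 CPM and NAM libraries 3.19, 2.44 and 3.07 CPM. TGFβ+SAM libraries had 10.5, 7.34 and 4.34 CPM and SAM libraries 1.21, 0.469 and 2.07 CPM. TGFβ+NAM and TGFβ+SAM libraries did not overlap with their backgrounds, while TGFβ and control libraries did. Krt80 rose by 1.84 ± 0.42 on the log2 scale with NAM (adjusted p = 0.00099) and 2.55 ± 0.48 with SAM (adjusted p = 5.39e-05). The change without a supplement was 1.05 ± 0.41 (adjusted p = 0.0699), and it passed when the compared groups were fitted alone (0.0341) and without TGFβ replicate 2 (1.36, adjusted p = 0.0241). In SAM it was lower than in control, with -1.82 ± 0.49 (adjusted p = 0.0108), a call lost without control replicate 1 (adjusted p = 0.0649), without SAM replicate 2 (0.0781), or without SAM replicates 2 and 3 together (0.152).

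Krt7 (chromosome 15, 101411043 to 101430313, plus strand), a type II keratin of ducts and other simple epithelia, differed in 1 comparison. In TGFβ libraries Krt7 was read at 6.23, 9.27 and 6.63 CPM, against 6.62, 7.29 and 7.26 CPM in control libraries. For Krt7 under NAM, TGFβ+NAM gave 7.80, 7.05 and 6.46 CPM and NAM alone 7.40, 5.65 and 4.18 CPM. For Krt7 under SAM, TGFβ+SAM gave 13.1, 19.4 and 16.3 CPM and SAM alone 10.6, 8.13 and 11.9 CPM. The TGFβ+SAM libraries were the highest of all groups and overlapped with none of the TGFβ libraries. The log2 change of TGFβ+SAM against TGFβ was 1.13 ± 0.29 (adjusted p = 0.00845). This call ended without TGFβ replicate 1 (adjusted p = 0.062) or without TGFβ+SAM replicate 2 (0.064). TGFβ+SAM against SAM gave 0.67 ± 0.28 (adjusted p = 0.0631), and SAM against control 0.53 ± 0.29 (adjusted p = 0.256), so neither passed.

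Both keratin types had more reads under TGFβ, and type II by the larger factor. Summed over the 26 type II genes, the level was 208 ± 10.5 CPM in TGFβ and 112 ± 4.49 CPM in control (SD, n = 3 each). Summed over the 28 type I genes, it was 59.4 ± 1.97 CPM in TGFβ and 47.6 ± 2.16 CPM in control. With SAM, the type II sum was 242 ± 19.2 CPM in TGFβ+SAM and 78.2 ± 12.7 CPM in SAM, and the type I sum 53.0 ± 1.57 CPM in TGFβ+SAM and 36.6 ± 3.78 CPM in SAM. The ratio of type II to type I reads was 3.50 ± 0.185 in TGFβ, 2.36 ± 0.182 in control, 4.57 ± 0.398 in TGFβ+SAM and 2.18 ± 0.589 in SAM. Krt8 dominates the type II sum and Krt20 the type I sum. These sums are descriptions without a test.

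**Figure D2:**
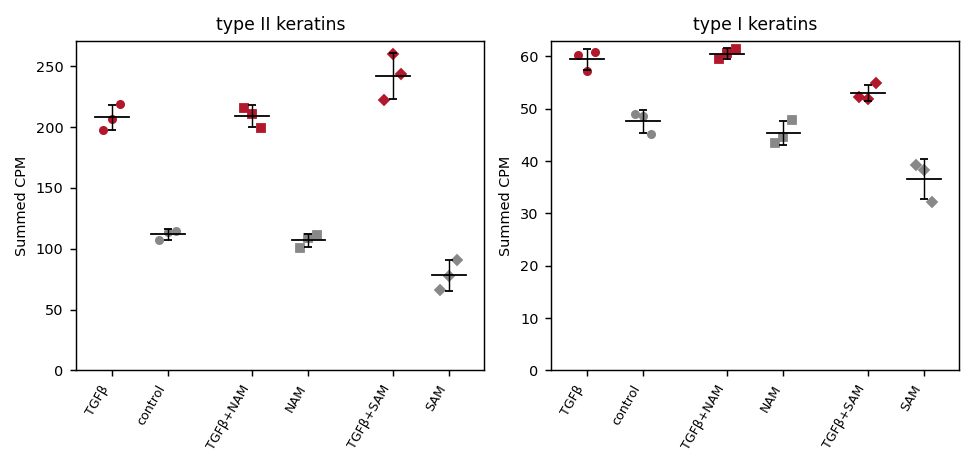
Summed CPM of type II and type I keratins in each library, by group, with the mean ± SD. The type II sum reaches 242 CPM in TGFβ+SAM and 78.2 CPM in SAM, and the type I sum spans a narrower range.

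Krt18, the usual type I partner of Krt8, was nearly unread. It had 75 reads over all libraries, against 15685 for Krt8. By library it had 15, 4 and 8 reads in TGFβ, against 1, 1 and 2 reads in control, and the log2 change of 2.95 ± 1.22 did not pass (adjusted p = 0.0868). With SAM, 11 reads fell in SAM replicate 1 and none in the other SAM libraries. Of the 50-base windows at the annotated 3′ end of Krt18, 1.11% occur without mismatch in another annotated gene. Copies with mismatches or outside the annotation were not searched. Why Krt18 was nearly unread was not tested. Krt8-ps, the Krt8 pseudogene, shares 57% of its windows with Krt8, and its 4 to 33 reads per group are uncertain.

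Several keratins of stratified epithelia were read in few copies and in some groups only. A keratin that passed the low-count filter only through groups where it was high had to differ. The calls of such a keratin, Krt14 among them, support nothing further. Krt14, the basal type I keratin, had 13, 22 and 5 reads in TGFβ libraries and none in control libraries. With control set at 3 reads over the group it was 16.3-fold higher (adjusted p = 0.00133). This fold takes the TGFβ reads as exact and is not a lower bound. The 95% interval of the fitted log2 change began at 3.65, against 4.03 for this fold. Krt14 had 23, 28 and 18 reads in TGFβ+NAM, against 1, 3 and 0 reads in NAM, a log2 change of 4.30 ± 1.08 (adjusted p = 0.0028). With SAM it had 4, 17 and 0 reads in TGFβ+SAM and none in SAM, 7.22-fold higher on the same floor (adjusted p = 0.00818). This call ended without TGFβ+SAM replicate 2 (0.132). Without SAM replicates 2 and 3, which leaves a single SAM library, the log2 change was 5.89, which does not show that the call holds. Without NAM replicate 2, the log2 change with NAM was 5.43. The groups thus overlapped only with SAM, where TGFβ+SAM replicate 3 had no read. Krt14 and Krt17 share 9.53% of their 3′ windows with Krt16 or each other, so their reads may be split.

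Krt81, a hair keratin, was read in TGFβ libraries alone. It had 0, 11 and 2 reads in TGFβ, 10, 5 and 3 in TGFβ+NAM and 14, 1 and 2 in TGFβ+SAM, and none in the libraries without TGFβ. Krt81 thus passed the low-count filter only through libraries with TGFβ. A difference was built in, so its calls support nothing further. Against a floor of 3 reads over the group it was 7.51-fold higher in TGFβ+NAM than in NAM (adjusted p = 0.0259). In TGFβ+SAM it was 5.84-fold higher than in SAM (adjusted p = 0.0309). The 95% intervals of the fitted log2 changes began at 1.87 with NAM and 1.58 with SAM, against 2.91 and 2.55 for these folds. TGFβ against control did not pass (adjusted p = 0.0599). The call with NAM ended without any 1 NAM library or TGFβ+NAM replicate 1 (largest adjusted p 0.082), and when both libraries that stood apart were left out (0.159). The call with SAM ended without any 1 SAM library, TGFβ+SAM replicate 1 (largest adjusted p 0.277) or SAM replicates 2 and 3 (0.279). Without TGFβ replicate 1, TGFβ against control passed (0.0386). Of its 3′ windows, 10.5% occur in Krt83, Krt86 or Krt87.

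Krt17, a type I keratin of basal and stressed epithelium, had reads in every group except SAM. It had no read in SAM, against 3, 10 and 10 reads in control, 7.2-fold lower with SAM set at 3 reads over the group (adjusted p = 0.0163). In TGFβ+SAM it had 7, 7 and 5 reads and was 6.53-fold higher than in SAM on the same floor (adjusted p = 0.00935). The 95% intervals of the fitted log2 changes reached -2.48 and 2.28, against -2.85 and 2.71 for these folds. The call in SAM against control ended without control replicate 3 or any 1 SAM library (largest adjusted p 0.061), and leaving out SAM replicates 2 and 3 ended it (0.264) and the call in TGFβ+SAM against SAM (0.16).

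Krt15, another basal type I keratin, was higher in SAM. It had 19, 18 and 29 reads in SAM, against 5, 0 and 2 in control, a log2 change of 3.28 ± 1.02 (adjusted p = 0.029). In TGFβ+SAM it had 0, 2 and 7 reads, -2.83 ± 0.99 against SAM (adjusted p = 0.0281). The SAM libraries did not overlap with either, but leaving out any 1 of the compared libraries ended the call against control (largest adjusted p 0.176, and a log2 change of 4.32 without control replicate 1), as did leaving out SAM replicates 2 and 3 (0.356). The call in TGFβ+SAM against SAM ended without any 1 SAM library, TGFβ+SAM replicate 1 or TGFβ+SAM replicate 2 (largest adjusted p 0.139), and without SAM replicates 2 and 3 (0.309), and the log2 change was -4.25 without TGFβ+SAM replicate 3. Of 7 keratinocyte markers, 4 (Lor, Flg, Dsg3 and Dsg1a) had no read. The list summed to 3.97 to 10.9 CPM in SAM and 2.14 to 2.68 CPM in control. Most of this sum came from Trp63, whose change with SAM did not pass, and Krt14 had no read in either group. The part of these markers in the Krt15 result was not tested.

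**Figure D3:**
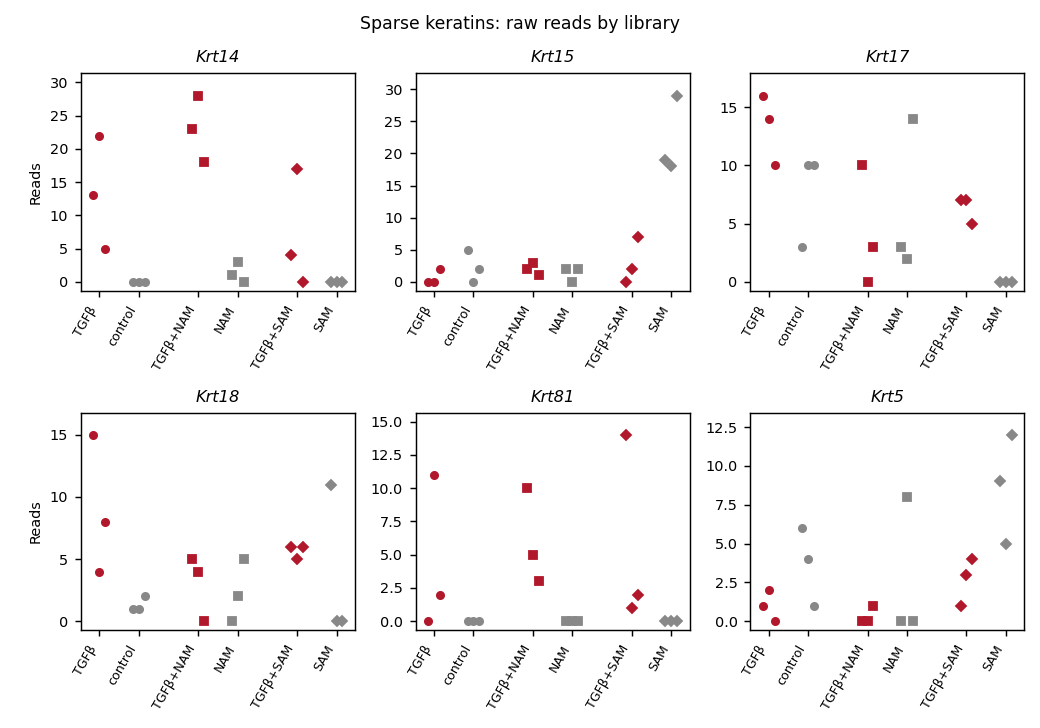
Raw reads of 6 sparsely read keratins in each library, by group. Krt14 and Krt81 have reads mainly in TGFβ libraries, Krt15 mainly in SAM, and Krt17 has none in SAM.

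F11r (chromosome 1, 171437535 to 171464603, plus strand), the junctional adhesion molecule JAM-A, rose with TGFβ on each background. F11r had 372, 359.6 and 399 CPM in TGFβ, against 201, 218 and 201 CPM in control. With NAM the values were 460.3, 411 and 344 CPM in TGFβ+NAM, against 243, 258 and 273 CPM in NAM. With SAM they were 308, 304 and 339 CPM in TGFβ+SAM, against 174, 181 and 179 CPM in SAM. The pairs did not overlap. F11r had a log2 change of 0.86 ± 0.09 without a supplement (adjusted p = 6.67e-10), 0.65 ± 0.09 with NAM (adjusted p = 2.89e-07) and 0.84 ± 0.09 with SAM (adjusted p = 1.02e-09). The interaction with SAM was -0.03 (95% interval -0.29 to 0.23) and that with NAM -0.21 (-0.47 to 0.04), and neither passed. NAM libraries lay above control libraries without overlap, with 0.32 ± 0.09 (adjusted p = 0.531), and this difference passed in DESeq2 alone (adjusted p = 0.0387). SAM libraries lay below control libraries without overlap, with -0.22 ± 0.09 (95% interval -0.40 to -0.03, adjusted p = 0.124), which passed when the compared groups were fitted alone (0.0197). TGFβ+SAM libraries lay below TGFβ libraries without overlap, with -0.25 ± 0.09 (-0.43 to -0.06, adjusted p = 0.0887), which passed without the libraries that stood apart (0.0427) and without TGFβ+SAM replicate 3 (0.0487).

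Cldn1 (chromosome 16, 26356642 to 26371841, minus strand), a sealing claudin found in parietal cells of the glomerulus and in many epithelia, fell with TGFβ on each background. The TGFβ libraries had 49.4, 49.3 and 47.9 CPM of Cldn1, and the control libraries 110.5, 120.0 and 111 CPM. Its level was 35.5, 52.4 and 54.4 CPM in TGFβ+NAM, against 98.5, 94.95 and 93.0 CPM in NAM. On the SAM background Cldn1 had 66.4, 60.2 and 61.0 CPM in TGFβ+SAM, against 151, 156 and 152 CPM in SAM. No TGFβ library reached any library of its background, and the SAM libraries were the highest of all. Cldn1 had a log2 change of -1.22 ± 0.12 (adjusted p = 7.67e-11), -1.01 ± 0.12 with NAM (adjusted p = 6.39e-09) and -1.29 ± 0.11 with SAM (adjusted p = 4.13e-12). It was higher in SAM than in control, by 0.43 ± 0.11 (adjusted p = 0.00714). Without SAM replicates 2 and 3, which leaves a single SAM library, the log2 change was 0.41, which does not show that the call holds. TGFβ+SAM against TGFβ gave 0.35 ± 0.12 and did not pass (adjusted p = 0.066), but passed without the libraries that stood apart (0.0188).

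Cldn2 (chromosome X, 139800828 to 139811386, plus strand), which forms the cation and water pore of the proximal tubule, had the largest fall among the members at 5 CPM or more. In TGFβ libraries Cldn2 was read at 0.842, 2.83 and 0.737 CPM, against 10.0, 8.58 and 3.38 CPM in control libraries. TGFβ+NAM libraries had 1.60, 0.801 and 0 CPM and NAM libraries 4.21, 7.58 and 5.58 CPM. TGFβ+SAM libraries had 0, 0.652 and 1.55 CPM and SAM libraries 10.3, 15.8 and 11.6 CPM. The groups overlapped in no pair, though control replicate 3 came close to TGFβ replicate 2. Fitted log2 changes were -2.24 ± 0.58 (adjusted p = 0.00378), -2.83 ± 0.64 with NAM (adjusted p = 0.000786) and -4.01 ± 0.63 with SAM (adjusted p = 2.18e-06). These rest on 26 reads in TGFβ, 14 in TGFβ+NAM and 14 in TGFβ+SAM, against 151 in control, 128 in NAM and 236 in SAM. The log2 change was -3.18 without TGFβ replicate 2, -3.72 with NAM without TGFβ+NAM replicate 1, and -5.14 with SAM without TGFβ+SAM replicate 3, and the calls remained. The interaction with SAM was -1.77 (95% interval -3.55 to 0.01, adjusted p = 0.483). Summed markers of the proximal tubule moved the same way, at 155 to 197 CPM in TGFβ and 1084 to 1194 CPM in control, with Hnf4a at 0 reads; their part in the fall of Cldn2 was not tested.

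Cldn12 (chromosome 5, 5489537 to 5514958, minus strand), a claudin linked to paracellular calcium passage, rose with TGFβ. Cldn12 had 152, 122 and 162 CPM in TGFβ, against 98.1, 92.5 and 94.3 CPM in control. For Cldn12 under NAM, TGFβ+NAM gave 154, 116 and 137 CPM and NAM alone 87.6, 102 and 109 CPM. For Cldn12 under SAM, TGFβ+SAM gave 164, 168 and 173 CPM and SAM alone 81.9, 103 and 79.8 CPM. All pairs were free of overlap. Fitted log2 changes were 0.61 ± 0.12 (adjusted p = 7.86e-05), 0.45 ± 0.11 with NAM (adjusted p = 0.00305) and 0.93 ± 0.12 with SAM (adjusted p = 1.78e-08). The larger value with SAM did not pass as an interaction, at 0.32 ± 0.16 (adjusted p = 0.497). Cldn19, a claudin of the thick ascending limb, had a highest group mean of 2.82 CPM. It lay lower without overlap in TGFβ than in control, at -2.33 ± 1.02 (adjusted p = 0.112), and in TGFβ+NAM than in NAM, at -2.24 ± 1.18 (adjusted p = 0.19). The first passed when the compared groups were fitted alone (0.0193) and without TGFβ replicate 1 (0.0394). With SAM it was lower in TGFβ+SAM (0, 0 and 1 reads) than in SAM (2, 16 and 1 reads), with -3.77 ± 1.46 (adjusted p = 0.0486). This call ended without SAM replicate 2 or any 1 TGFβ+SAM library (largest adjusted p 0.519). The Cldn19 log2 change was -1.81 without SAM replicate 2, -5.67 without TGFβ+SAM replicate 3 and -2.12 without SAM replicates 2 and 3. The calls of Krt8, F11r, Cldn1, Cldn2 and Cldn12 in the 3 TGFβ comparisons held under each of 14 or 15 alternatives.

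**Figure D4:**
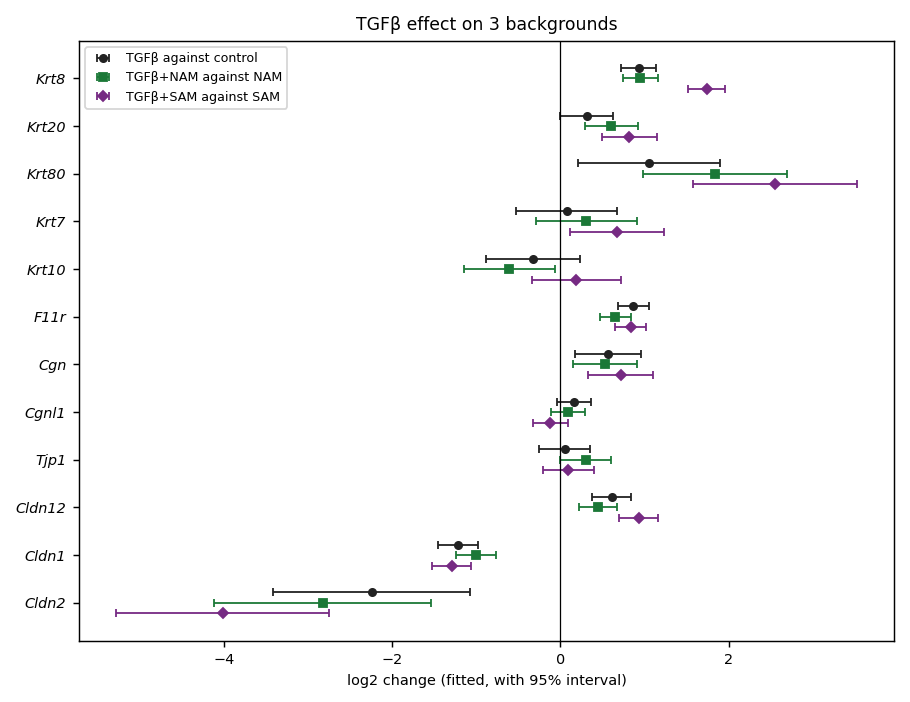
Fitted log2 change with its 95% interval for 12 members in the 3 TGFβ comparisons. Krt8, F11r and Cldn12 lie right of 0 and Cldn1 and Cldn2 left of it on each background, and the Krt8 interval with SAM lies right of the other 2 Krt8 intervals.

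Tjp1 and Tjp3, scaffolds of the zonula occludens family, passed no test. Tjp1 (ZO-1) averaged 45.3 ± 5.55 CPM in TGFβ and 43.8 ± 3.20 CPM in control (SD, n = 3 each), a log2 change of 0.05 with a 95% interval of -0.25 to 0.35. It was not called in any of the 9 comparisons and interactions, and neither was Tjp3 (ZO-3), with a highest group mean of 1.62 CPM in TGFβ+SAM.

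Krt10, a type I keratin of differentiating epidermis, was also not called in any of these comparisons. It had 14.4, 12.6 and 13.0 CPM in TGFβ+SAM, against 8.26, 8.17 and 5.90 CPM in TGFβ, without overlap. The log2 change was 0.82 ± 0.27 (95% interval 0.27 to 1.38, adjusted p = 0.0589), which passed without the libraries that stood apart (0.0387). TGFβ+NAM against NAM gave -0.61 ± 0.27 for Krt10 (adjusted p = 0.103), which passed without TGFβ+NAM replicate 1, at -0.85 (adjusted p = 0.0393).

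Cgn (cingulin; chromosome 3, 94760069 to 94786492, minus strand), which binds the junction to actin and myosin, rose with TGFβ on each background. The TGFβ libraries had 35.2, 30.3 and 31.2 CPM of Cgn, and the control libraries 21.8, 20.7 and 23.0 CPM. With NAM the values were 38.6, 38.8 and 29.96 CPM in TGFβ+NAM, against 30.2, 23.0 and 21.5 CPM in NAM. With SAM they were 26.4, 47.8 and 31.5 CPM in TGFβ+SAM, against 25.5, 17.3 and 21.4 CPM in SAM. TGFβ and control libraries did not overlap, whereas TGFβ+NAM replicate 3 lay under NAM replicate 1. The log2 change was 0.56 ± 0.19 (adjusted p = 0.0326), 0.53 ± 0.19 with NAM (adjusted p = 0.038) and 0.72 ± 0.19 with SAM (adjusted p = 0.00343). These calls were fragile: DESeq2 gave adjusted p = 0.0548 without a supplement and 0.061 with NAM, leaving out any 1 library except TGFβ replicate 2 ended the call without a supplement (up to 0.129), and leaving out TGFβ+SAM replicate 2 ended the call with SAM (0.108), as did leaving out SAM replicates 2 and 3 (0.266). With NAM the call ended without NAM replicate 2 or 3 or TGFβ+NAM replicate 1 or 2 (largest adjusted p 0.152), and without the 2 libraries that stood apart (0.275). Of its 3′ windows, 5.1% occur in other genes.

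Cgnl1 (paracingulin; chromosome 9, 71626509 to 71771602, minus strand) was not called under TGFβ and was lower with SAM. In TGFβ libraries Cgnl1 was read at 163, 175 and 201 CPM, against 166, 164 and 150.3 CPM in control libraries. Its level was 191, 179 and 153 CPM in TGFβ+NAM, against 159, 164 and 167 CPM in NAM. On the SAM background Cgnl1 had 108, 125 and 115 CPM in TGFβ+SAM, against 139.6, 113 and 125 CPM in SAM. All TGFβ+SAM libraries lay below all TGFβ libraries, and all SAM libraries below all control libraries. The log2 change was -0.63 ± 0.10 in TGFβ+SAM against TGFβ (adjusted p = 2.25e-05) and -0.35 ± 0.10 in SAM against control (adjusted p = 0.018). For SAM alone, the call ended without control replicate 1 (0.0772), control replicate 2 (0.0693), SAM replicate 2 (0.119) or SAM replicate 3 (0.0606), as well as without SAM replicates 2 and 3 (0.534). The interaction of SAM with TGFβ, -0.29 ± 0.14, did not pass (adjusted p = 0.483).

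For the supplements themselves, some members differed with SAM, and none passed with NAM. The SAM libraries carry their own run of library numbers, so their differences cannot be told apart from those of preparation. SAM against control raised 2 of the 21 tested members (Cldn1 and Krt15), or 9.52%, where the background was 5.02%. It lowered 5 (Krt8, Krt20, Krt80, Krt17 and Cgnl1), or 23.8%, where the background was 6.79%, and the median log2 change was -0.01 for the members and 0.00 for all tested genes. TGFβ+SAM against TGFβ raised 1 (Krt7) and lowered 1 (Cgnl1), or 4.76% each, near the background of 3.07% higher and 4.25% lower. Under TGFβ, Krt8, Krt20, Krt80 and Cldn1 did not pass, with log2 changes of 0.19, -0.31, -0.31 and 0.35. Of the 4, the interaction passed for Krt8 alone.

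NAM against control called no member (background 0% higher and 0.00742% lower), with 2 at an unadjusted p under 0.05 and 1, F11r, called by DESeq2. TGFβ+NAM against TGFβ also called none (background 0.0297% higher and 0.052% lower), with none at an unadjusted p under 0.05 and none by DESeq2, and the interaction of NAM with TGFβ called none (background 0% in either direction), with none at an unadjusted p under 0.05 or by DESeq2. For the 13 tested members at 5 CPM or more in a group, the log2 change of NAM against control was -0.60 to 0.45, and the 95% intervals reached -1.48 for Krt80 and 0.99 for Krt10. With TGFβ present it was -0.92 to 0.19, and the intervals reached -2.41 for Cldn2 and 0.99 for Krt80. For deeply read members the intervals were narrower, and NAM against control gave -0.17 to 0.23 for Cgnl1, -0.23 to 0.19 for Krt8 and -0.17 to 0.30 for Cldn12. The interval lay above 0 for F11r (0.14 to 0.50) and below 0 for Cldn1 (-0.48 to -0.03), the 2 members at an unadjusted p under 0.05.

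**Figure D5:**
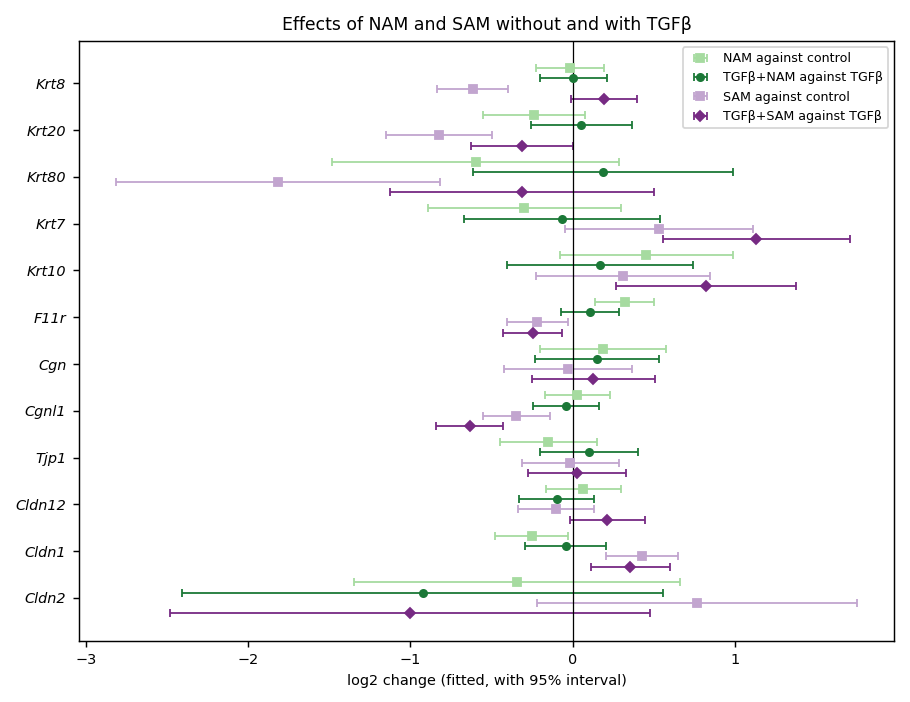
Fitted log2 change with its 95% interval for the same 12 members under NAM and SAM, without and with TGFβ. Every NAM log2 change lies between -0.92 and 0.45, while the SAM intervals against control lie left of 0 for Krt8, Krt20, Krt80, Cgnl1 and F11r and right of 0 for Cldn1. Under TGFβ the SAM intervals lie left of 0 for Cgnl1 and F11r and right of 0 for Krt7, Krt10 and Cldn1, of which Cgnl1 and Krt7 passed the test.

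Other junction and filament genes were taken from 4 lists. Of 18 tested genes of adherens junctions and desmosomes, TGFβ raised 7 and lowered 2 against control, with a median log2 change of 0.20, where the median of all tested genes was 0.01. With NAM it raised 9 and lowered 3, and with SAM 9 and 3. The shares raised were 38.9%, 50% with NAM and 50% with SAM, where 9.7%, 10.9% and 14.2% of all tested genes rose, and the shares lowered were 11.1%, 16.7% and 16.7%, near the 9.74%, 11% and 14.2% of all tested genes. Means of list genes are ± SD of 3 libraries. Cdh16, the kidney-specific cadherin, averaged 55.5 ± 3.24 CPM in TGFβ and 169 ± 16.8 CPM in control, a log2 change of -1.60 ± 0.12 (adjusted p = 2e-14). Nectin4, an adhesion molecule of adherens junctions, averaged 21.5 ± 2.33 CPM in TGFβ and 4.88 ± 0.662 CPM in control, a log2 change of 2.14 ± 0.22 (adjusted p = 4.49e-10). Cdh6, a cadherin of the developing tubule, averaged 1129 ± 134 CPM in TGFβ and 714 ± 15.1 CPM in control, a log2 change of 0.66 ± 0.08 (adjusted p = 9.45e-09). Cadherin changes thus ran in both directions. N-cadherin (Cdh2) averaged 147 ± 3.20 CPM in TGFβ and 129.96 ± 13.4 CPM in control, and E-cadherin had 7 reads in TGFβ and 4 in control.

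Of 25 tested tight junction proteins and adaptors outside the members, TGFβ raised 4 and lowered 6 against control (median log2 change -0.14), 3 and 6 with NAM, and 5 and 7 with SAM. The shares raised, 16%, 12% with NAM and 20% with SAM, stood beside backgrounds of 9.7%, 10.9% and 14.2%, and the shares lowered, 24%, 24% and 28%, beside 9.74%, 11% and 14.2%. Magi3, a junctional scaffold, averaged 129 ± 8.91 CPM in TGFβ and 338 ± 17.1 CPM in control, a log2 change of -1.39 ± 0.09 (adjusted p = 2.82e-15). Amotl1 and Amot, angiomotins that join junctions to YAP regulation, moved apart: Amotl1 averaged 373 ± 19.8 CPM in TGFβ and 211 ± 8.06 CPM in control, a log2 change of 0.82 ± 0.09 (adjusted p = 6.54e-10), and Amot averaged 32.3 ± 7.40 CPM in TGFβ and 79.3 ± 1.29 CPM in control, a log2 change of -1.31 ± 0.17 (adjusted p = 8.99e-08). Of 15 tested keratin linkers and other intermediate filaments, 2 rose and 2 fell with TGFβ (median 0.22), 4 and 2 with NAM, and 3 and 2 with SAM. The shares that rose were 13.3%, 26.7% with NAM and 20% with SAM, and 13.3% fell on each background, against the same backgrounds of all tested genes. Named by the smallest p were Plec (plectin), a linker of filaments to junctions, at 0.33 ± 0.10 (adjusted p = 0.0109), Tchp (trichoplein), a keratin-binding protein, at -0.38 ± 0.11 (adjusted p = 0.00697) and Ppl (periplakin), a desmosomal linker, at -1.36 ± 0.44 (adjusted p = 0.0235). The Plec call ended without control replicate 2 (0.09) or TGFβ replicate 3 (0.0706), and the Tchp call without control replicate 3 (0.0724). The Ppl call ended without control replicate 1 or 3 or TGFβ replicate 1 or 2 (largest adjusted p 0.145).

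Of 15 tested epithelial transcription and splicing factors, TGFβ raised 2 and lowered 4 (median 0.01), 4 and 4 with NAM, and 5 and 4 with SAM. The shares raised were 13.3%, 26.7% with NAM and 33.3% with SAM, where 9.7%, 10.9% and 14.2% of all tested genes rose, and 26.7% were lowered on each background, where 9.74%, 11% and 14.2% of all tested genes fell. Tfcp2l1, a factor of the distal nephron and collecting duct, averaged 92.8 ± 13.8 CPM in TGFβ and 235 ± 6.43 CPM in control, a log2 change of -1.33 ± 0.10 (adjusted p = 1.22e-13). Tfap2a, an AP-2 factor, averaged 40.2 ± 7.47 CPM in TGFβ and 98.3 ± 5.35 CPM in control, a log2 change of -1.28 ± 0.13 (adjusted p = 1.09e-10). Klf4, a factor of epithelial differentiation, averaged 58.3 ± 4.65 CPM in TGFβ and 107 ± 5.48 CPM in control, a log2 change of -0.87 ± 0.12 (adjusted p = 1.82e-07). Over the 4 lists, NAM against control called none of 73 tested genes in edgeR, with 7 at an unadjusted p under 0.05 and none by DESeq2, and TGFβ+NAM against TGFβ called none, with 5 and none. SAM against control raised 4 and lowered 3 genes of adherens junctions and desmosomes, 0 and 2 of the tight junction list, 2 and 4 of the filament list and 2 and 1 of the factor list. These are 22.2% and 16.7%, 0% and 8%, 13.3% and 26.7%, and 13.3% and 6.67%, where 5.02% of all tested genes rose and 6.79% fell.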

How the data were processed

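The deposited table holds counts, whole numbers of reads per gene and library, in 18 libraries, and none of its value columns was left unused. STAR and HTSeq are named in the submitters' processing notes, with versions and strand setting not given in the sources used here. The notes name GRCh38 while the gene identifiers are mouse Ensembl, so symbols and coordinates were taken from GENCODE M21 (GRCm38), which gave a symbol to 55141 of 55487 rows. Reads outside genes (22.8% to 28.2%) and ambiguous reads (0.607% to 0.779%) were left out.

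Groups follow the sample titles. In edgeR 4.0.16 (R 4.3.3), filterByExpr selected genes (minimum count 10), TMM scaled them, and 1 quasi-likelihood model covered all 18 libraries, a coefficient for each group. The 7 comparisons and 2 interactions, each a TGFβ effect with a supplement minus that without it, were two-sided, with Benjamini-Hochberg adjustment over 13469 genes. An exact permutation of 3 against 3 libraries cannot go below p = 0.1. Intervals are at 95%. The code was tested on simulated data. Alternatives were DESeq2 1.42.0, other scalings and filters, the compared groups alone, a replicate block and left-out libraries.

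Every library's value is given for members that were tested, reached 5 CPM in a group mean and were called at least once. From each list, up to 3 genes with the smallest p in TGFβ against control are named. Genes outside this rule, the sparsely read keratins, Cldn19, Tjp1, Tjp3, Krt10, Cdh2, Jup, Pkp1 and Trp63 among them, were chosen after their values were seen. Members and lists were chosen with earlier results of these data known. Floors use 3 reads over a group. A fold against a floor takes the reads of the other group as exact, so it is not a lower bound. Floors cover counting error alone, and only where reads are independent molecules. The intervals of fitted changes also take in the spread between libraries. Promoters come from RefSeq (GRCm38.p6), which held 69 members. No 2 libraries of a group agreed within sampling noise, with chi-square per degree of freedom of 3.4 or more. Same-numbered libraries of different groups did not deviate together (r of -0.0997 to 0.0696 over 45 pairs), so numbers were not taken as pairs. The values of 1 tested member, which is in all counts of members, are not reported here.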

Additional observations from a re-analysis of the deposited data

Results flagged for a closer look

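The TGFβ effect on Krt8 differed between cells with and without SAM, with a difference of 0.81 ± 0.15 on the log2 scale (edgeR's quasi-likelihood test, adjusted p = 0.00078). Krt8 averaged 216 ± 18.1 CPM in TGFβ+SAM and 64.9 ± 11.4 CPM in SAM, against 189 ± 6.65 CPM in TGFβ and 99.4 ± 6.11 CPM in control (SD, n = 3 each).

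From the lists, Jup (plakoglobin, of desmosomes and adherens junctions) also had a larger TGFβ effect with SAM, by 0.85 ± 0.21 (adjusted p = 0.0206), with 172 ± 39.8 CPM in TGFβ+SAM and 77.4 ± 6.09 CPM in SAM, against 125 ± 3.93 CPM in TGFβ and 101 ± 28.3 CPM in control. Magi3 fell further with SAM, by -0.52 ± 0.13 (adjusted p = 0.0299), with 106 ± 5.69 CPM in TGFβ+SAM and 399 ± 36.1 CPM in SAM, against 129 ± 8.91 CPM in TGFβ and 338 ± 17.1 CPM in control. Leaving out single libraries ended both list calls (largest adjusted p 0.19 for Jup and 0.131 for Magi3), as did leaving out SAM replicates 2 and 3 (0.227 and 0.224). SAM and preparation cannot be told apart in the levels of SAM libraries.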

How the results depend on the processing

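No result reversed under any alternative run: of 284 counts of members, 258 stayed within 1.5 times, and of 2857 values of single members, 67 lost a call and 14 gained one. TGFβ+SAM against TGFβ had 2 members higher with library totals, and 3 higher and 2 lower without NAM replicate 3 and TGFβ+NAM replicate 1. SAM against control had 1 member higher without a low-count filter or at a minimum count of 30, and 0 higher and 1 lower without SAM replicates 2 and 3. TGFβ+SAM against SAM had 2 lower at a minimum count of 30, and 5 higher and 2 lower without SAM replicates 2 and 3. NAM against control had 1 higher by DESeq2. The cause of these shifts was not tested. Leaving out 1 library at a time gave 4 to 7 members higher and 2 to 3 lower for TGFβ against control, 6 to 8 and 2 to 3 with NAM, and 7 to 9 and 2 to 3 with SAM. It gave 1 higher and 2 to 4 lower for SAM against control, and 0 to 1 higher and 1 to 2 lower for TGFβ+SAM against TGFβ. It gave 0 and 0 for NAM against control, for TGFβ+NAM against TGFβ and for the interaction with NAM, and 1 higher and 0 lower for the interaction with SAM. The replicate block changed 1 of 207 values, Cldn19 in TGFβ+SAM against SAM, to -3.56 (adjusted p = 0.0812). Low depth limits the sparse keratins and claudins.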

Other observations

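Trp63 and Pkp1, chosen from the lists after their values were seen, stood at 0 reads in 1 group each. A gene that passed the low-count filter only through groups where it was high had to differ, so its calls support nothing further. Trp63, the p63 factor of basal epithelial cells, had no read in TGFβ, against 19, 15 and 15 reads in control. With TGFβ set at 3 reads over the group it was 13.4-fold lower (edgeR's quasi-likelihood test, adjusted p = 0.000311). It averaged 0.155 ± 0.269 CPM in TGFβ+SAM and 6.49 ± 3.87 CPM in SAM (adjusted p = 3.71e-05). SAM against control did not pass for Trp63, with 2.45 ± 0.276 CPM in control (SD, n = 3 each; adjusted p = 0.204).

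Pkp1, the plakophilin of desmosomes in stratified epithelia, had 40, 33 and 39 reads in TGFβ and none in control. With control set at 3 reads over the group it was 45.6-fold higher (adjusted p = 4.43e-08). It had 357 reads in TGFβ+SAM and 16 in SAM (adjusted p = 2.87e-08). The basal keratin Krt5, below the low-count filter, had 26 reads in SAM, 11 in control and 3 in TGFβ, and was not tested.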
